A study of Mus musculus with 4 samples.

Results

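Kinesins are motor proteins that walk along microtubules or take their ends apart. The kinesin genes were taken as every row of the expression table whose symbol is Kif followed by a number, with or without a letter, or Kifc followed by a number and no letter. The rule found 38 of the 19171 genes in the table. They were divided into the 12 mitotic kinesins (Kif2c, Kif4, Kif11, Kif14, Kif15, Kif18a, Kif18b, Kif20a, Kif20b, Kif22, Kif23 and Kifc1) and the 26 other kinesins. The division rests on known function and not on the values. The kinesin genes were, however, chosen with earlier results of these data known.

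The samples were primary cells released by collagenase from the calvaria, the skull bone, of C57BL/6 mice at postnatal day 10. All cells had the genotype mir17fl/fl:106b-/-, that is, floxed alleles of the miR-17 cluster and no miR-106b cluster. One group of 2 libraries was infected with adenovirus expressing Cre, the recombinase that removes floxed DNA, and the other group of 2 libraries with adenovirus expressing YFP, a fluorescent protein. RNA was taken 3 days after infection at a dose of virus that reached over 80% of cells, and polyadenylated RNA was sequenced. Both groups lack the miR-106b cluster. The insert of the virus differs together with the deletion, so their effects cannot be told apart. Separate animals or cultures are not stated for the pair of libraries in a group, so every p-value is set against a spread that may be technical.

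The mitotic kinesins are made mainly by dividing cells, with RNA and protein that peak in G2 and mitosis. They push spindle poles apart, hold chromosomes at the spindle equator, shorten microtubule ends and build the midzone at which the cell is cut in 2. Many of the other kinesins carry vesicles, mitochondria, endosomes or ciliary cargo, and many are abundant in neurons. Not all are carriers, since Kif2a and Kif24 belong to a family that takes microtubule ends apart. The promoters of many genes of late cell cycle hold a short element called CHR (cell cycle genes homology region), through which they are repressed in resting cells, often together with CCAAT boxes.

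The values are FPKM, fragments scaled by transcript length and by library depth, so that levels can be set side by side between genes. FPKM summed to 458756 to 471021 in the 4 libraries. Genes at 1 FPKM or more in at least 2 libraries were tested, 12046 in all. The host transcript of the deleted cluster, Mir17hg, had 3.29 and 3.91 FPKM with YFP and 7.35 and 8.49 with Cre. In the GENCODE M21 model of that transcript 62.8% of the length lies downstream of the last miRNA, so its level does not check the deletion. Of the osteoblast markers, Col1a1 and Runx2 were present at 1684 to 1778 and 10.3 to 12.1 FPKM. Alpl and Sp7 were near the filter, at 1.53 to 2.49 and 1.81 to 2.43 FPKM. Spp1, a bone matrix gene that other cells also make, was at 3126 to 3919 FPKM and rose with Cre (log2 change 0.29, limma adjusted p = 0.00148), the only one of 5 tested osteoblast markers of 8 listed to pass. Markers of mature bone-forming cells and osteocytes were low, with Ibsp at 0.39 to 0.63 FPKM, Dmp1 at 0.10 to 0.26 and Bglap listed at 0 in both YFP libraries and at 1.27 and 0.91 with Cre.

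The promoters of the mitotic kinesins are shown first because they share letters that the choice of the genes did not use. The RefSeq promoter table (build GRCm38.p6, 250 bases before to 50 bases after each annotated start) held 30 of the 38 genes, among them 11 of the 12 mitotic kinesins, Kif20a being the other. The other kinesins without an entry were Kif5a, Kif5b, Kif13b, Kif19a, Kif21b, Kifc2 and Kifc3. Each sequence below runs 5′ to 3′ on the gene's own strand from 80 bases before to 50 bases after the start. Capitals mark the CHR letters TTTGAA and the CCAAT box, read on either strand, so that they also appear as TTCAAA and ATTGG.

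Kif11, chr19:37376302-37376431, plus strand: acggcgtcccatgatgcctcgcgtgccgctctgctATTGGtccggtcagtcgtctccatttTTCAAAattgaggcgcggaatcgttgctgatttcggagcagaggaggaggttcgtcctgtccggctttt
Kif15, chr9:122951001-122951130, plus strand: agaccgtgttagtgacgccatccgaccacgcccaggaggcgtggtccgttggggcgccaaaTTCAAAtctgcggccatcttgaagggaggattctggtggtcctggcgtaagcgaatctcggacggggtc
Kif4, chrX:100625985-100626114, plus strand: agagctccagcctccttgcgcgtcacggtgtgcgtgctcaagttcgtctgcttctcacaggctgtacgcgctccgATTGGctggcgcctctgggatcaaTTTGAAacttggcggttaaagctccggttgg
Kif22, chr7:127042371-127042500, minus strand: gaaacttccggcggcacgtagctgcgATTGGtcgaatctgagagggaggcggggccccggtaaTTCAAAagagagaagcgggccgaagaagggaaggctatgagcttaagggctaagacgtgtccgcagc
Kif18b, chr11:102925075-102925204, minus strand: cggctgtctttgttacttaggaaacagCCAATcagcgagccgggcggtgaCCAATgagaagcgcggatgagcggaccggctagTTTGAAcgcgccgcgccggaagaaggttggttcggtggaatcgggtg
Kif20b, chr19:34922278-34922407, plus strand: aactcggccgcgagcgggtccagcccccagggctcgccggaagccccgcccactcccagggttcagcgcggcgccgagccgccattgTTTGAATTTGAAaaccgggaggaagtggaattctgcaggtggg
Kif23, chr9:61946750-61946879, minus strand: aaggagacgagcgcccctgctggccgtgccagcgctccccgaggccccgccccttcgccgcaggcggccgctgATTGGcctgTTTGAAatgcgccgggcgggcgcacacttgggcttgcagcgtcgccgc
Kifc1, chr17:33890584-33890713, minus strand: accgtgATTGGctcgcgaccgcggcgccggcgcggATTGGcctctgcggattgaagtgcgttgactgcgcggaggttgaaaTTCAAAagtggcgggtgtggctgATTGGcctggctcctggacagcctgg

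For contrast, the windows of the mitotic kinesin Kif18a and of the transport kinesin Kif1c hold neither element, and so carry no capitals.

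Kif18a, chr2:109280658-109280787, plus strand: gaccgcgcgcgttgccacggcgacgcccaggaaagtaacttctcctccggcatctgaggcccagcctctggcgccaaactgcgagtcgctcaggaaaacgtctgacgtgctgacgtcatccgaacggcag
Kif1c, chr11:70700468-70700597, plus strand: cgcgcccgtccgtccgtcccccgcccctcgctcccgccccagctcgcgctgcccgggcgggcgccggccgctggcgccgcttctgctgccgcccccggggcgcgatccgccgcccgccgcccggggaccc

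TTTGAA was found on either strand of the 300 bases in 10 of 11 mitotic kinesins and in 3 of 19 other kinesins (Kif1a, Kif26b and Kif27). It was present in 17.9% of all 32851 promoter windows of the table, and in a window of 20.2% of all 27025 genes. In 8 of the 11 mitotic kinesins the element began within 30 bases of the start, against 3.66% of all genes, a distance chosen after the positions were seen. Among the other kinesins 1 of 19, Kif26b, had it there. In Kif20b the element stood in 2 copies, end to end, beginning at positions 8 and 14. Kif14 and Kif2c had it farther upstream, beginning at positions -228 and -103 from the start. The rarer CHR letters TTCGAA occurred in 0 of 11 mitotic kinesins and in 1 other kinesin, Kif24, against 1.8% of all genes. The CCAAT box, also on either strand, was in 7 of 11 mitotic and 7 of 19 other kinesins, against 41.1% of all genes. The E2F letters TTCCCGC or TTGGCGC were in 2 of 11 mitotic kinesins (Kif15 and Kif18a) and in 2 of 19 others (Kif2a and Kif6), against 7.79% of all genes. A match is a run of letters, not a measured binding site. The annotated starts are uncertain for some genes. The end of the window lay in a GENCODE M21 transcript of the same gene for 28 of 34 kinesin windows. Among the mitotic kinesins it did not for Kif11, Kif23 and Kif2c, which are counted among those with TTTGAA. Kif11 and Kif23 are also among the 8 with the element within 30 bases of the start, so their distances are uncertain. In Kif1a TTTGAA was not in the window of every annotated start.

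**Figure D1:**
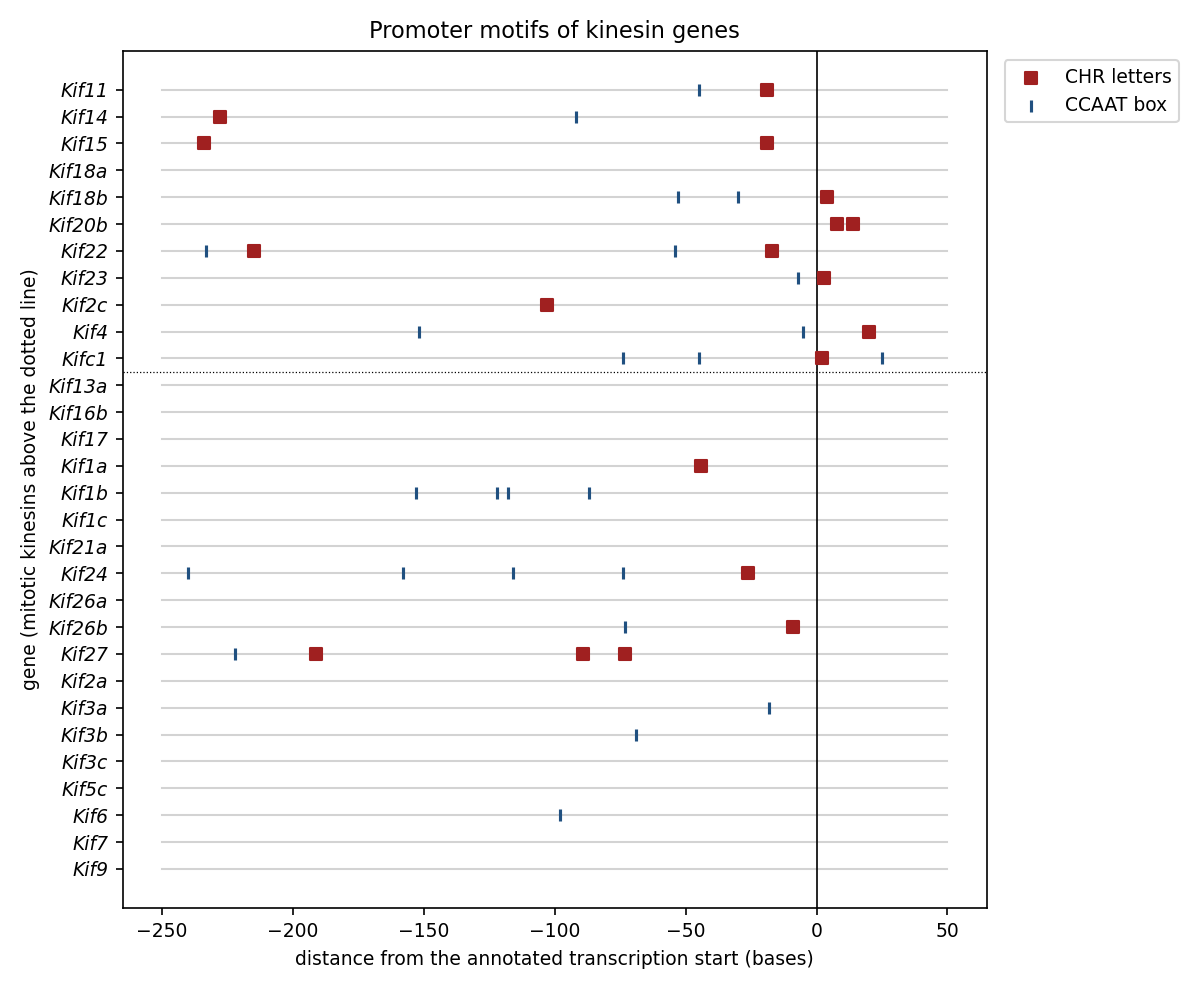
Position of the CHR letters (TTTGAA or TTCGAA, red squares) and of CCAAT boxes (blue ticks), on either strand, along the promoter window of each of the 30 kinesin genes with an entry, in bases from the annotated transcription start; genes with more than 1 annotated start have their windows laid over each other. In 8 of the 11 mitotic kinesins, above the dotted line, a red square lies within 30 bases of the start. Among these, the starts of Kif11 and Kif23 are uncertain.

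With Cre, 11 of the 12 mitotic kinesins fell and 0 rose. All 12 were at 1 FPKM or more in all 4 libraries, so none entered the test through a single group. Across all 12046 tested genes 16.3% fell and 16.6% rose by the same rule (limma, Benjamini-Hochberg adjusted p under 0.05). The median log2 change of the 12 was -0.37, against -0.01 over all tested genes. In 11 of the 12, both Cre libraries lay below both YFP libraries, which held for 35.4% of all tested genes. Log2 changes are of FPKM + 1, so those of low genes come out too small, and ratios are of mean FPKM. RNA from a whole culture cannot tell fewer dividing cells from less of these RNAs in each cell.

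**Figure D2:**
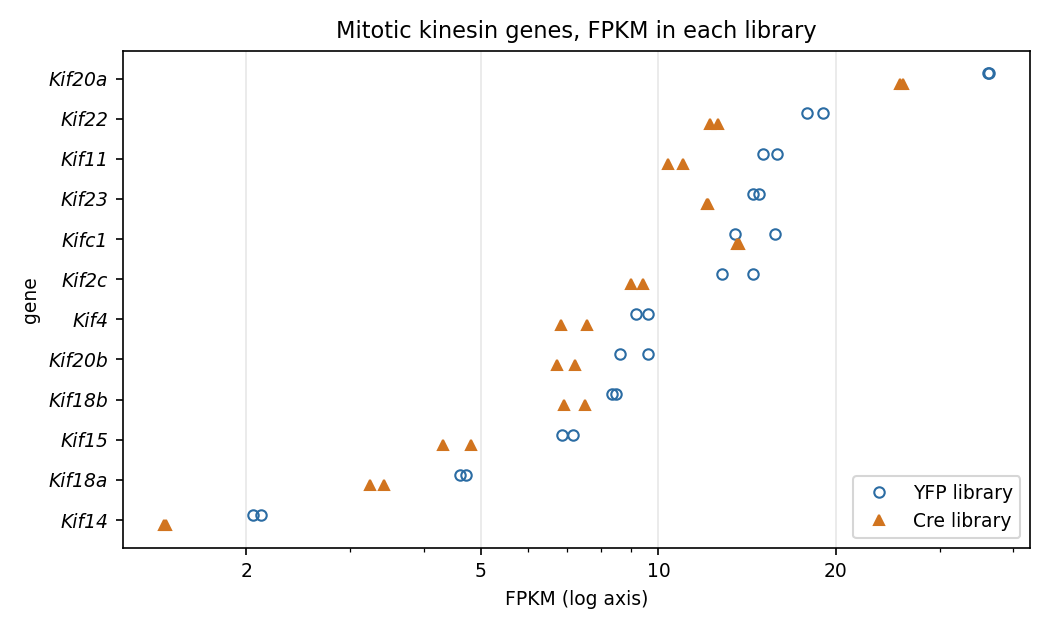
FPKM of the 12 mitotic kinesin genes in each library, on a log axis, with 2 YFP libraries (blue circles) and 2 Cre libraries (orange triangles) per gene, ordered by the YFP mean. The triangles lie to the left of both circles in every gene but Kifc1.

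The motors that separate the spindle poles fell together. Kif11 (Entrez 16551), the plus-end motor that slides antiparallel microtubules apart to make the spindle bipolar, was at 15.02 and 15.89 FPKM with YFP and at 10.99 and 10.39 with Cre. Both Cre libraries were lower, by 30.8% on the means (log2 change -0.49, SE 0.06, limma adjusted p = 0.000104). Kif15 (Entrez 209737), a second motor that helps to keep the poles apart, was at 6.87 and 7.16 FPKM with YFP and at 4.81 and 4.32 with Cre. Its ratio of 0.651 was the lowest among the 12 (log2 change -0.53, SE 0.07, limma adjusted p = 0.000218).

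Both chromokinesins, which bind chromosome arms, fell. Kif22 (Entrez 110033), which pushes the arms toward the spindle equator, was at 19.0 and 17.9 FPKM with YFP and at 12.6 and 12.2 with Cre (log2 change -0.53, SE 0.05, limma adjusted p = 4.86e-05). Kif4 (Entrez 16571), a motor of condensed chromosomes that also works at the midzone, was at 9.16 and 9.61 FPKM with YFP and at 7.56 and 6.83 with Cre. The groups did not overlap in either gene, and the ratios were 0.675 and 0.767 (Kif4 log2 change -0.34, SE 0.06, limma adjusted p = 0.00227). In GENCODE M21, 15.1% of the exonic bases of Kif4 overlap Pdzd11 on the opposite strand, and use of strand is not given in the sources used here. Pdzd11 itself fell by 0.18 on the log2 scale (limma adjusted p = 0.00872). It no longer passed when Cre replicate 1 or Cre replicate 2 was left out (adjusted p = 0.0625 and 0.0999). The share of reads between the genes was not tested.

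The 3 motors that act on microtubule ends fell. Kif2c (Entrez 73804), known as MCAK, a depolymerase that corrects faulty attachments at centromeres, was at 14.5 and 12.8 FPKM with YFP and at 8.98 and 9.43 with Cre (log2 change -0.52, SE 0.06, limma adjusted p = 0.000174). Kif18a (Entrez 228421), which damps chromosome movements at the equator, was at 4.61 and 4.72 FPKM with YFP and at 3.42 and 3.24 with Cre (log2 change -0.39, SE 0.07, limma adjusted p = 0.00143). Kif18b (Entrez 70218), which limits the length of astral microtubules, was at 8.46 and 8.34 FPKM with YFP and at 7.51 and 6.91 with Cre. The groups did not overlap in any of the 3, with ratios of 0.674, 0.714 and 0.858. The fall of Kif18b was the smallest of the 11 called in mitotic kinesins (log2 change -0.20, SE 0.06, limma adjusted p = 0.0322), and its call was lost without any 1 of the 4 libraries (adjusted p = 0.0529 to 0.233) and in the unfiltered table (adjusted p = 0.0707).

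The 4 motors of the midzone and of cytokinesis fell. Kif20a (Entrez 19348), which brings the chromosomal passenger complex to the midzone, was the most abundant mitotic kinesin, at 36.2 and 36.3 FPKM with YFP and at 25.7 and 26.0 with Cre. The gap between the groups was far wider than that within either (log2 change -0.47, SE 0.05, limma adjusted p = 3.04e-05). Of its annotated exonic bases 29.3% overlap Cdc23 on the opposite strand. Cdc23 was at 20.86 and 20.04 FPKM with YFP and at 18.7 and 18.2 with Cre (log2 change -0.14, limma adjusted p = 0.0536), and past the threshold with median-of-ratios scaling, without YFP replicate 2 or at a mean FPKM of at least 5 (adjusted p = 0.0443 to 0.0479). Kif23 (Entrez 71819), the motor subunit of the centralspindlin complex, was at 14.5 and 14.8 FPKM with YFP and at 12.1 and 12.1 with Cre, a ratio of 0.826 (log2 change -0.26, SE 0.05, limma adjusted p = 0.00369).

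Kif20b (Entrez 240641), another motor of late cytokinesis, was at 8.60 and 9.61 FPKM with YFP and at 7.23 and 6.73 with Cre (log2 change -0.34, SE 0.07, limma adjusted p = 0.00328). Kif20b missed the threshold without Cre replicate 2 (log2 change -0.29, adjusted p = 0.0592). Kif14 (Entrez 381293), which works with citron kinase in the final cut, was the lowest mitotic kinesin, at 2.12 and 2.05 FPKM with YFP and at 1.46 and 1.45 with Cre. The libraries of a group were close, and the ratio of 0.698 was near that of Kif11, while the log2 change of FPKM + 1 was -0.33 (SE 0.08, limma adjusted p = 0.00739). Kif14 missed the threshold without Cre replicate 1 or Cre replicate 2 (adjusted p = 0.0504 and 0.0635).

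Kifc1 (Entrez 100502766), the minus-end motor that gathers microtubules at the spindle poles, was the mitotic kinesin that did not pass. It was at 15.8 and 13.5 FPKM with YFP and at 13.6 and 13.7 with Cre, so that the groups overlapped (log2 change -0.09, SE 0.07, limma adjusted p = 0.361). It passed without YFP replicate 2 (log2 change -0.19, adjusted p = 0.0327) and turned to 0.015 without YFP replicate 1 (adjusted p = 0.885). Kifc1 is also the mitotic kinesin whose reads are least its own: 45.8% of the 50-base stretches of its longest GENCODE M21 transcript occur in the paralog Kifc5b, while 2.68% or less of those of the other 11 occur in any other gene. Kifc5b, whose symbol falls outside the rule, was at 3.11 and 2.77 FPKM with YFP and at 2.27 and 2.37 with Cre (log2 change -0.25, limma adjusted p = 0.031). The sums of both genes were 18.9 and 16.3 with YFP and 15.9 and 16.1 with Cre, so both values are uncertain where reads were split between the copies.

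Among themselves the mitotic kinesins spanned ratios from 0.651 to 0.934. The SE of each log2 change was 0.05 to 0.08, so that neighbours in the order, such as Kif22, Kif15, Kif2c, Kif11 and Kif20a at -0.53 to -0.47, lay within their errors of each other. Of the 11 calls, 8 were made in all 10 alternative settings in which the gene was tested, and the remaining 3 were those of Kif20b, Kif14 and Kif18b.

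**Figure D3:**
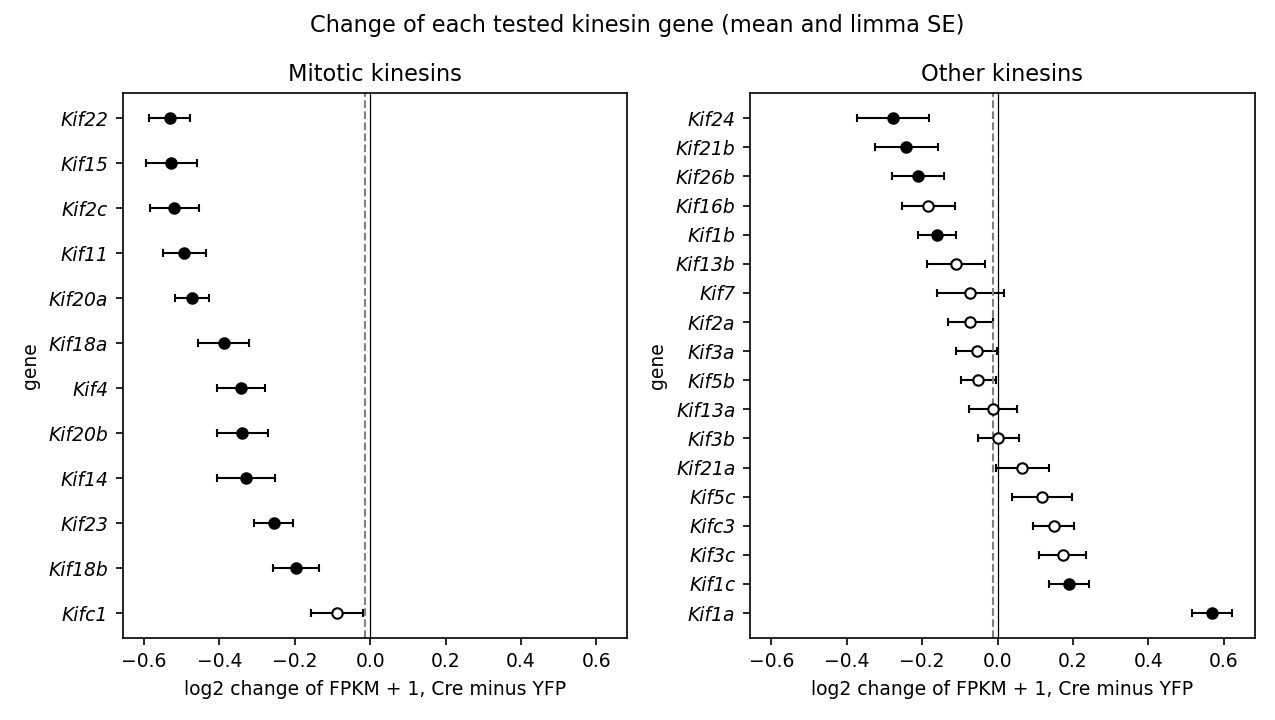
Log2 change of FPKM + 1 (Cre minus YFP) of the 12 mitotic and the 18 tested other kinesins, as the limma estimate with its SE. Filled points passed the threshold, open points did not, and the dashed line is the median of all 12046 tested genes (-0.01). The mitotic kinesins lie between -0.53 and -0.09, the others between -0.28 and 0.57.

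Of the 26 other kinesins, 18 were tested, 2 rose, 4 fell and 12 did not pass, at a median log2 change of -0.05. One of the falls is that of Kif24, which entered the test only through the YFP libraries. The counts are near the shares of all tested genes, 16.3% for falls and 16.6% for rises, and with no filter 1 of the 26 rose and 0 fell. In addition, 8 of the 18 had both Cre libraries below both YFP libraries (35.4% of all tested genes). Of the 6 calls, that of Kif1a alone was made in every alternative setting. Summed over the 12 mitotic kinesins, FPKM were 155 and 153 with YFP and 116 and 113 with Cre. Over the 26 others the sums were 205 and 203 with YFP and 213 and 203 with Cre. The mitotic kinesins made up 43.0% and 42.9% of all kinesin FPKM with YFP and 35.3% and 35.8% with Cre.

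**Figure D4:**
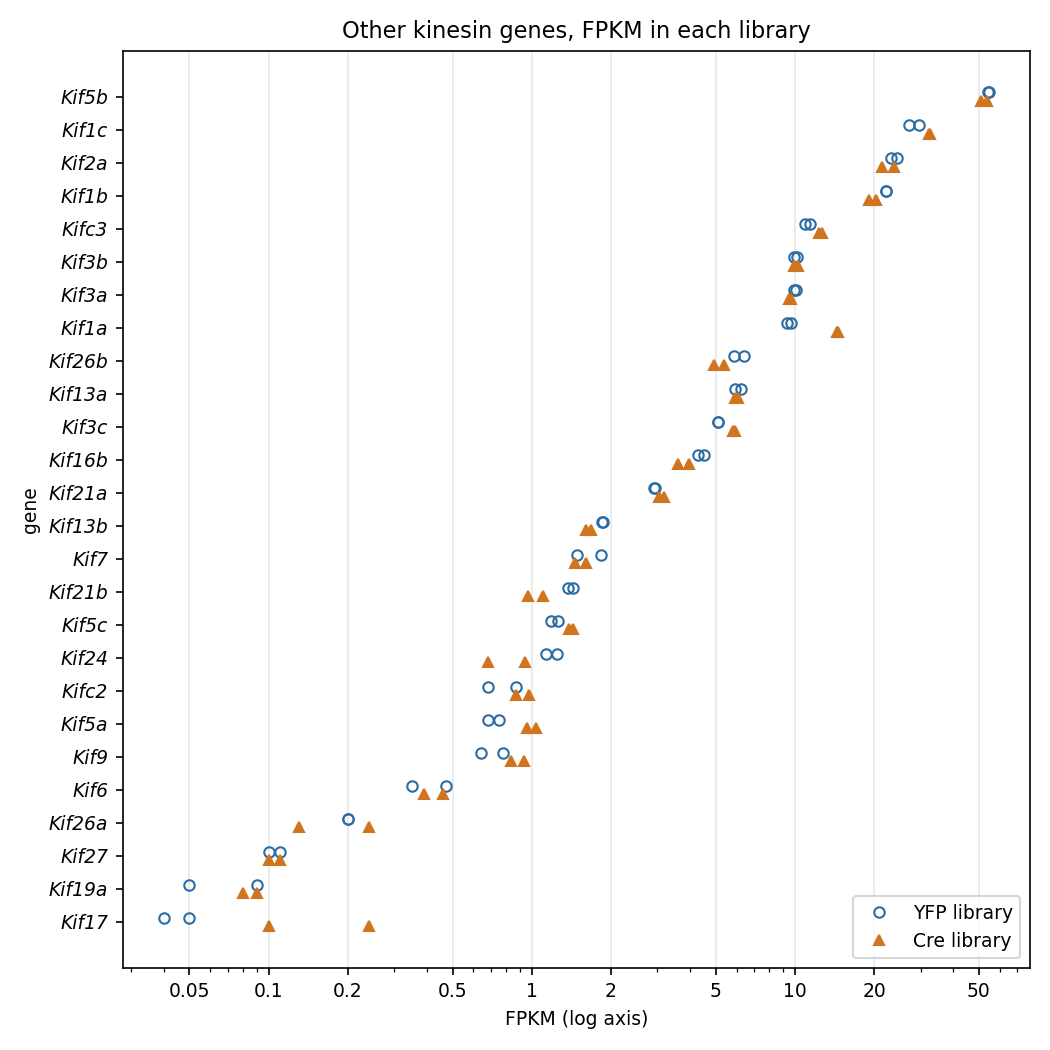
FPKM of the 26 other kinesin genes in each library, on a log axis, with YFP libraries as blue circles and Cre libraries as orange triangles, ordered by the YFP mean. Kif5b leads at 50.9 to 54.4 FPKM, and the 2 triangles of Kif1a lie to the right of its circles.

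Kinesin-1, the founding transport motor, pairs a heavy chain (Kif5a, Kif5b or Kif5c) with light chains. Kif5b (Entrez 16573), the heavy chain made in most tissues, was the most abundant kinesin, at 54.0 and 54.4 FPKM with YFP and at 53.7 and 50.9 with Cre. The groups were nearly level (log2 change -0.05, SE 0.05, limma adjusted p = 0.44). The neuronal chain Kif5c was at 1.26 and 1.18 FPKM with YFP and at 1.39 and 1.43 with Cre, which did not pass (limma adjusted p = 0.287). The other neuronal chain, Kif5a, was at 0.68 and 0.75 FPKM with YFP and at 1.04 and 0.96 with Cre, and was not tested since only 1 library reached 1 FPKM. With no filter its log2 change was 0.22 (limma adjusted p = 0.0787).

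The kinesin-3 motors, which carry vesicles over long distances, moved in both directions. Kif1a (Entrez 16560), the carrier of synaptic vesicle precursors in neurons, was at 9.33 and 9.62 FPKM with YFP and at 14.6 and 14.5 with Cre. Its rise to 1.53 times the YFP mean was the largest log2 change among all 30 tested kinesins (0.57, SE 0.05, limma adjusted p = 2.72e-05). Kif1c, known for transport between Golgi and endoplasmic reticulum, was at 29.6 and 27.1 FPKM with YFP and at 32.7 and 32.2 with Cre (log2 change 0.19, SE 0.05, limma adjusted p = 0.0185). The call of Kif1c was lost without YFP replicate 2, Cre replicate 1 or Cre replicate 2 (adjusted p = 0.0965 to 0.129). It was lost as well in the unfiltered table and without the trend and robust options (adjusted p = 0.0608 and 0.061). Kif1b, a carrier of mitochondria and synaptic vesicle precursors, went the other way, from 22.2 and 22.2 FPKM to 20.4 and 19.2.

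That fall of Kif1b (log2 change -0.16, SE 0.05, limma adjusted p = 0.0331) was lost without any 1 library (adjusted p = 0.0634 to 0.257). It was also lost with a replicate block, in the unfiltered table and without the trend and robust options (adjusted p = 0.0524, 0.0709 and 0.0705). Kif16b, which moves early endosomes, was at 4.53 and 4.29 FPKM with YFP and at 3.94 and 3.59 with Cre, short of the threshold though the groups did not overlap (log2 change -0.18, limma adjusted p = 0.0693). Kif13a and Kif13b were at 5.90 to 6.26 and 1.61 to 1.86 FPKM over the 4 libraries, and neither passed (limma adjusted p = 0.908 and 0.30).

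Markers of neurons and glia were looked at beside Kif1a and the Kif5 chains. Of 11 listed, 8 were tested, 6 rose and 2 fell (against 16.6% and 16.3% of all tested genes), and the summed FPKM was 86.4 to 86.8 with YFP and 113 to 116 with Cre. Nes, an intermediate filament gene of progenitors, Ngfr, the low-affinity neurotrophin receptor gene, Syn1, a synaptic vesicle gene, and the glial gene S100b rose by 0.68, 0.45, 0.47 and 0.33 on the log2 scale (limma adjusted p = 3.31e-06, 5.87e-05, 0.000525 and 0.00217). Map2 and Stmn2, both neuronal microtubule genes, fell by 0.24 and 0.29 (limma adjusted p = 0.0346 and 0.00784). The defining neuronal marker Rbfox3 was listed at 0 in both YFP libraries and at 0.03 and 0.02 FPKM with Cre, Snap25 at 0.06 to 0.14 and the astrocyte marker Gfap at 0.09 to 0.12. The part of these cells in the level of Kif1a was not tested.

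Kinesin-2, the motor of intraflagellar transport in cilia, is a complex of Kif3a, Kif3b and the adaptor Kifap3. Kif3a was at 9.92 and 10.1 FPKM with YFP and at 9.53 and 9.65 with Cre, and Kif3b at 10.2 and 9.94 with YFP and at 10.3 and 9.91 with Cre. Neither motor subunit passed (limma adjusted p = 0.478 and 0.98). Kifap3, not a motor itself, fell from 27.9 and 29.0 FPKM to 24.3 and 24.0 (log2 change -0.23, SE 0.05, limma adjusted p = 0.00397). Kif3c, a subunit of neuronal kinesin-2, was at 5.11 and 5.08 FPKM with YFP and at 5.90 and 5.84 with Cre, just short of the threshold (log2 change 0.17, limma adjusted p = 0.0537) and past it without the trend and robust options (adjusted p = 0.0425). Antisense genes overlap 40.7% of its exonic bases. Kif17 was at 0.04 to 0.05 FPKM with YFP and at 0.24 and 0.10 with Cre, and was not tested.

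Of the kinesin-4 genes outside mitosis, Kif21b fell by the test, from 1.44 and 1.37 FPKM to 1.1 and 0.97 (log2 change -0.24, SE 0.08, limma adjusted p = 0.0456). Kif21b missed it when any 1 library was left out (adjusted p = 0.091 to 0.249), with a replicate block and in the unfiltered table (adjusted p = 0.0618 and 0.0678). Kif21a was at 2.92 to 3.19 FPKM and Kif7, the kinesin of Hedgehog signalling at the tip of the cilium, at 1.46 to 1.84, and neither passed (limma adjusted p = 0.513 and 0.576). Kif27, the paralog of Kif7, was at 0.10 to 0.11 FPKM and was not tested.

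Kinesin-13 proteins do not walk but take microtubule ends apart, and Kif2c belongs to them as well. Kif2a, the member made in most cells, was at 23.1 and 24.5 FPKM with YFP and at 23.8 and 21.4 with Cre, with overlapping groups (log2 change -0.07, SE 0.06, limma adjusted p = 0.392). Dimt1 overlaps 19.2% of its exonic bases on the opposite strand. Kif24, which works at the mother centriole and restrains the growth of cilia, was at 1.13 and 1.25 FPKM with YFP and at 0.94 and 0.68 with Cre. It entered the test only through the YFP libraries, and its fall (log2 change -0.28, SE 0.10, limma adjusted p = 0.0449) was lost without YFP replicate 1, YFP replicate 2 or Cre replicate 2 (adjusted p = 0.0658 to 0.323), with a replicate block and in the unfiltered table (adjusted p = 0.0636 and 0.0887).

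Kif26b, a kinesin of the atypical kinesin-11 family needed for kidney development in mice, fell from 6.38 and 5.85 FPKM to 5.37 and 4.93 (log2 change -0.21, SE 0.07, limma adjusted p = 0.0392). Its call was lost without YFP replicate 1, Cre replicate 1 or Cre replicate 2 (adjusted p = 0.0707 to 0.254), in the unfiltered table and without the trend and robust options (adjusted p = 0.0882 and 0.0547). Kifc3, a minus-end motor of epithelial junctions, was at 11.42 and 10.95 FPKM with YFP and at 12.7 and 12.4 with Cre, short of the threshold (log2 change 0.15, limma adjusted p = 0.0572). Genes on the opposite strand overlap 27.5% of the exonic bases of Kifc3 and 20.3% of those of Kif7. The low kinesins were not tested: Kif9 and Kif6, linked to motile cilia, were at 0.64 to 0.93 and 0.35 to 0.47 FPKM, Kif19a at 0.05 to 0.09, Kif26a at 0.13 to 0.24 and Kifc2 at 0.68 to 0.98. Of 5 listed markers of multiciliated cells, 3 had values. These were equally low, with a summed FPKM of 0.47 to 0.77 over the libraries, most of it Ccdc39 (0.41 to 0.64).

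Partners of the kinesins were then counted from lists of the pathway. Of 20 listed genes, 20 fell (against 16.3% of all tested genes), and the median log2 change was -0.39. Most are partners of the mitotic kinesins in the passenger complex, the midzone and the spindle. The list also holds Cenpe, Top2a and Mki67, so these are part of the count. Plk1, the mitotic kinase that docks on several midzone motors, fell by 0.51 on the log2 scale, Racgap1, the partner of Kif23 in centralspindlin, by 0.46, the passenger gene Birc5 by 0.49 and the cytokinesis scaffold Anln by 0.46 (limma adjusted p = 2.08e-05, 3.97e-05, 4.06e-05 and 7.47e-05). Cenpe, a kinetochore kinesin under another symbol, was at 9.50 and 9.91 FPKM with YFP and at 7.27 and 7.11 with Cre (log2 change -0.39, limma adjusted p = 0.000563). Mki67, a marker of cycling cells, went from 21.9 and 23.9 FPKM to 16.01 and 15.31 (log2 change -0.52, limma adjusted p = 7.53e-05). Falls of the division genes in these libraries were already known when the list was drawn up, so the count is a description.

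The machinery of transport gave other counts. Of 14 tested light chains and cargo adaptors, 3 rose and 1 fell (against 16.6% and 16.3% of all tested genes), and the median log2 change was 0.11. The rises were those of Mapk8ip1 (0.28), Trak2 (0.21), which links kinesin-1 to mitochondria, and Plekhm2 (0.18), which links it to lysosomes, and the fall was that of Kifap3 (limma adjusted p = 0.0124, 0.0154, 0.0401 and 0.00397). Each of the 3 rises was lost without at least 1 library. Of 21 tested subunits and partners of dynein and dynactin, the motor that runs the opposite way, 2 rose (Dynll2 and Ndel1) and 2 fell (Dctn5 and Dync1li2), against 16.6% and 16.3% of all tested genes, with a median of 0.01. The rise of Dynll2 was the largest of these (log2 change 0.31, limma adjusted p = 0.000496), and the other 3 calls were each lost without Cre replicate 2 (adjusted p = 0.0999 to 0.249). Of 22 tested genes of intraflagellar transport, the cargo machinery of kinesin-2, 7 fell and 1 rose (against 16.3% and 16.6% of all tested genes), with a median of -0.14. Ift172, Ift88 and Ift43 fell by 0.29, 0.28 and 0.25, while Ift46 rose by 0.28 (limma adjusted p = 0.0115, 0.00652, 0.00358 and 0.00414), and these 4 calls were lost without Cre replicate 2 (adjusted p = 0.0731 to 0.128).

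**Figure D5:**
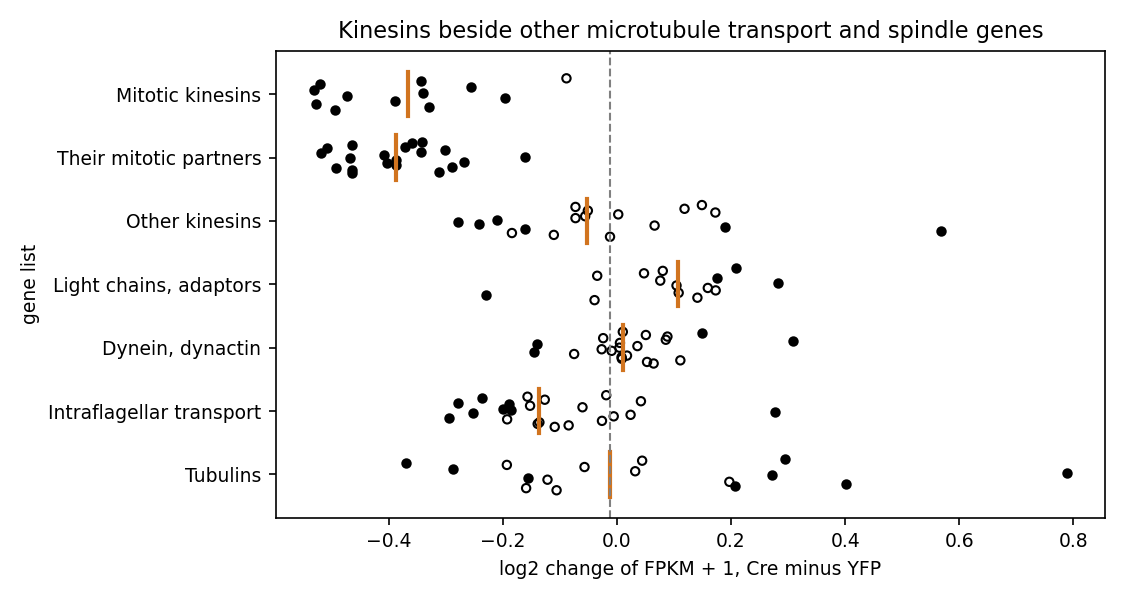
Log2 change of FPKM + 1 (Cre minus YFP) of each tested gene in 7 lists, filled where the threshold was passed and open where it was not; orange bars are list medians and the dashed line is the median of all tested genes. Medians are -0.37 for the mitotic kinesins and -0.39 for the list of their partners, and lie between -0.14 and 0.11 for the 5 other lists. The list of partners also holds Cenpe, Top2a and Mki67.

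The deleted miRNAs pair with RNAs through bases 2 to 8 of the mature strand, the seed. The cluster holds 4 seeds, and 1 miRNA of each is shown from RefSeq (build GRCm38.p6), with the seed in capitals. miR-20a, miR-106b and miR-93 share the seed of miR-17, miR-19b shares that of miR-19a and miR-25 that of miR-92a. Of these, miR-106b, miR-93 and miR-25 belong to the cluster absent from both groups.

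mmu-miR-17-5p: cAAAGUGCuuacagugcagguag
mmu-miR-18a-5p: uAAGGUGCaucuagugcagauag
mmu-miR-19a-3p: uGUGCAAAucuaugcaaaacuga
mmu-miR-92a-3p: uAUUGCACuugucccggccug

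Matches to these seeds were searched in the longest annotated 3′ UTR of each gene (GENCODE M21, GRCm38). Of the 12 mitotic kinesins 3 held at least 1 site of 7 letters, of the 26 others 13, and of 10963 tested genes with a UTR 34.2%. The UTRs were of unequal length, with medians of 541.5 bases in mitotic kinesins, 1901.5 in the others and 1201 in all tested genes. The sites of the 3 mitotic kinesins and those of Kif1a are given on the RNA strand, with the 7 matched letters in capitals and the positions of those letters. Kif23 holds a miR-17 site, Kif14 a miR-92a site, Kif2c a miR-18a site and Kif1a a pair of miR-18a sites.

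Kif23, chr9:61917436-61917442, minus strand: caaaaaaaaatGCACTTTagacatattta
Kif14, chr1:136529214-136529220, plus strand: ttcaccttgctGTGCAATaatctttagtt
Kif2c, chr4:117160097-117160103, minus strand: gaaaactttggGCACCTTctggctttggt
Kif1a, chr1:93017865-93017871, minus strand: ttgtctgagatGCACCTTgcatggtacgt
Kif1a, chr1:93015967-93015973, minus strand: caatcatgccaGCACCTTattcaacacac

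The 3 mitotic kinesins with a site, Kif23, Kif14 and Kif2c, fell (log2 change -0.26, -0.33 and -0.52). So did most mitotic kinesins without a site, since 11 of all 12 fell. Over all tested genes 16.3% fell, and the share among those with a site was not counted. Among the other kinesins with a site, Kif1a rose (0.57) and Kif26b, whose UTR held 5 sites over the 4 seeds, fell (-0.21). Another 9 did not pass, namely Kif13a, Kif13b, Kif21a, Kif2a, Kif3a, Kif3b, Kif3c, Kif5b and Kif5c, and Kif5a and Kif6 were not tested. Kif1c, which rose, held 0 sites. A letter match is not a measured target, and binding was not measured here.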

How the data were processed

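Polyadenylated RNA from 1 ug of total RNA was sequenced on single-end BGISEQ-500 libraries with 30 M reads planned, per the labels' protocols. The deposited values are FPKM, 1 column per library, made by the authors. The submitters' processing notes name Bowtie 02.2.5 and build mm8. Which program and annotation made the FPKM, and whether strand was used, is not given in the sources used here. Columns were matched to samples by the number in their name. Read counts were not used, so no counting interval is given.

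Genes at 1 FPKM or more in at least 2 libraries were compared as log2(FPKM + 1) in R 4.3.3 by limma 3.58.1, with an intensity trend and robust empirical Bayes. Tests were two-sided, with Benjamini-Hochberg adjustment over all 12046 tested genes and a threshold of 0.05. The fit was run on simulated data drawn from its own model, which cannot show whether that model suits these libraries. Alternatives were a pseudocount of 0.1, no filter, a mean FPKM of at least 5, median-of-ratios scaling, a replicate block, no trend or robust option, and leaving out each library. The kinesin genes and lists were chosen with earlier results of these data known. Text names every kinesin, and up to 4 members of each partner list by smallest unadjusted p, plus Cenpe, Mki67, some markers and overlapping genes picked after values were seen. Multi-start promoters were counted once per gene. Motif and seed searches used RefSeq and GENCODE M21 tables of GRCm38, another build than mm8, so no gene coordinates are joined to the files.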

Additional observations from a re-analysis of the deposited data

How the results depend on the processing

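The direction of every tested kinesin that passed held in all settings in which it was tested. Kif14 and Kif18a were not tested at a mean FPKM of at least 5. Fewer mitotic kinesins could therefore pass in that setting. The count of mitotic kinesins past the threshold was 9 to 11 under the settings that kept all libraries, and 8 to 11 with 1 library left out. The count of other kinesins past it was less stable: 6 as reported, 1 with no filter, 3 with a replicate block and 1 to 2 with 1 library left out. The count over all tested genes, 3961, was 1872 to 3560 with 1 library left out (1872 without Cre replicate 2 and 2384 without Cre replicate 1). The median log2 change of the mitotic kinesins, -0.37, was -0.48 with a pseudocount of 0.1, -0.41 where the mean FPKM was 5 or more, and -0.41 to -0.34 with 1 library left out. That of the other kinesins, -0.05, was 0.0013 with no filter, where all 26 entered, and -0.068 to -0.0050 with 1 library left out. The replicate numbers are not said to mark shared animals or cultures, and the deviations of same-numbered libraries had a correlation of -0.03 across genes. With the replicate block 3533 genes and 11 mitotic kinesins passed. Each left-out fit leaves 1 library in a group, which is assumed to vary like the others. The cause of these differences was not tested. Depth is unknown without read counts, so what could be detected for low kinesins is not given.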

Other observations

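Tubulins were listed with 16 tested genes. Most code for alpha and beta tubulin, the track on which kinesins run. The list also holds Tubg1, Tubg2, Tubd1 and Tube1, which code for other tubulins. Of the 16 genes, 5 rose and 3 fell (against 16.6% and 16.3% of all tested genes), and the median log2 change was -0.01. Tubg2 is among the rises (log2 change 0.29) and Tube1 among the falls (-0.37). Tubb4a went from 2.65 and 2.66 FPKM to 4.73 and 5.96 (log2 change 0.79, SE 0.09, limma adjusted p = 0.000147), Tuba4a rose by 0.40 and the neuronal isotype Tubb3 by 0.27 (limma adjusted p = 0.000384 and 0.00252). The abundant isotype Tubb5 fell from 486 and 441 FPKM to 370 and 388 (log2 change -0.29, limma adjusted p = 0.00283). The calls of Tubb3 without Cre replicate 2 and of Tubb5 without Cre replicate 1 were lost (adjusted p = 0.0555 and 0.0575). Tubulin isotypes have similar coding sequences, and how reads were shared between them is not given in the sources used here.

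Of 8 listed leukocyte markers, 6 had values and 5 were tested. Of these, 4 rose and 0 fell (against 16.6% and 16.3% of all tested genes). The list summed to 93.2 to 95.7 FPKM with YFP and 124 to 131 with Cre, while Ptprc was at 0.27 to 0.37. Most of the sum was Lyz2, at 79.8 and 75.1 FPKM with YFP and at 99.1 and 104.8 with Cre. Tyrobp, Laptm5 and Csf1r also rose, from YFP means of 4.37, 3.425 and 1.315 FPKM to Cre means of 6.01, 4.655 and 1.92. Cd68, at means of 7.58 FPKM with YFP and 12.7 with Cre, did not pass (limma adjusted p = 0.0552). Of 2 tested endothelial markers 0 passed, and their list summed to 3.75 to 4.44 FPKM over the libraries.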
